A study of Mus musculus with 15 samples.

Results

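Leptin, its receptor and the proximal steps of its signaling were followed as 10 genes out of the 56748 listed in the deposited table: Lep, Lepr, Jak2, Stat3, Socs3, Ptpn1, Sh2b1, Cish, Irs1 and Irs2. They were named for their place in the pathway by a rule that uses no measured value, but earlier results of these data were known when they were chosen. The levels come from RNA sequencing of whole kidney and whole lung of male C57Bl/6 mice of WT genotype, with 3 libraries in each of 5 groups. WTK kidneys came from mice given vehicle. IgGK and LepK kidneys came from mice injected with folic acid at 200 mg/kg, which injures the tubules and is followed by fibrosis, and then given a control IgG or LepAb, a human monoclonal antibody that neutralizes leptin. IgGL and LepL lungs came from mice given bleomycin at 1.5 units/kg into the trachea, which injures the lung and is followed by fibrosis, and then the same control IgG or LepAb. Antibody was given at 10 mg/kg from day 1, for 21 days in the kidney model and 14 days in the lung model. The kidney mice were 10 to 12 weeks old at injection and were euthanized at day 28, and the lung mice were 12 weeks old and were euthanized at day 14. No lung without bleomycin was analysed here, so the lung groups show the antibody comparison only. Nor was an uninjured kidney with antibody analysed here, so folic acid and control IgG cannot be told apart as the source of a difference between IgGK and WTK.

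Leptin is a hormone of fat cells that circulates in proportion to fat mass and binds the cytokine receptor encoded by Lepr, best known for its action on the hypothalamus. The long receptor isoform carries the kinase JAK2, which phosphorylates STAT3, a transcription factor that among other genes induces Socs3. SOCS3 and the phosphatase encoded by Ptpn1 (PTP1B) shut the signal off, SH2B1 strengthens it, and the insulin receptor substrates IRS1 and IRS2 connect JAK2 to PI3K and AKT. Many cytokines other than leptin use JAK2 and STAT3, so the level of these transcripts is no measure of leptin itself. LepAb binds the leptin protein, and none of the values below measures protein or phosphorylation.

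STAT factors bind the palindrome TTCNNNGAA. The promoter windows of the 2 members that hold it are shown, and both members belong to the SOCS family. All 10 members matched the RefSeq promoter table (GRCm38.p6, 12 windows of 300 bases, from 250 bases before to 50 bases from the annotated start, along the gene's own strand). The palindrome, which reads alike on both strands, was searched in each. It was present in the windows of Socs3 (chr11:117969317-117969616, minus strand) and Cish (chr9:107296409-107296708, plus strand), with each match in capitals.
Socs3: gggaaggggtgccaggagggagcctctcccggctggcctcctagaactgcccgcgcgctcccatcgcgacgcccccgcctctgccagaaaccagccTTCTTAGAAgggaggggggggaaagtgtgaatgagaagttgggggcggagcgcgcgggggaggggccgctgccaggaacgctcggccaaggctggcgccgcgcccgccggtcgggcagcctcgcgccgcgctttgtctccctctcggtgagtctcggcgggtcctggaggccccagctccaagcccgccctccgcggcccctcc
Cish: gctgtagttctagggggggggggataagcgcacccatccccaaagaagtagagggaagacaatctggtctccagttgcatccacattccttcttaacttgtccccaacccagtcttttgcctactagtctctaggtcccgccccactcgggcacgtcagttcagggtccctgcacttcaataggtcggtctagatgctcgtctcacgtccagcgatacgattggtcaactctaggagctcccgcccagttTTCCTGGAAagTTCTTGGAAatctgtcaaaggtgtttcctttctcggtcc
The match in Socs3 begins 154 bases before the start, and the matches in Cish begin at the start and 11 bases after it. The bases just after the start were found in an annotated transcript for Cish but not for Socs3, so the distance in Socs3 is less certain. Of all 32851 windows, 8.3% hold at least 1 match and 0.457% at least 2, and the windows of the other 8 members hold none. A match in letters is no measure of binding.

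Total counts ranged from 25913969 to 38924788 per library. Levels are given as normalized CPM (counts scaled to a common library size with edgeR's TMM factors) within each organ, and a call of up- or down-regulation required a log2 fold change above 0.5 or below -0.5 together with an adjusted p (Benjamini-Hochberg, edgeR's quasi-likelihood test) under 0.05. The summed CPM of 5 proximal tubule markers was 3087 to 14062 in the kidney libraries and 30.7 to 158 in the lung libraries, and that of 6 alveolar and airway markers was 14462 to 43931 in lung and 5.57 to 22.4 in kidney, as the labels of the organs have it. IgGK replicates 1 and 2 stood apart from the other kidney libraries by 4 adrenal cortex markers (summed CPM 376 and 450, against 11.97 in IgGK replicate 3 and 5.40 to 7.64 in the WTK and LepK libraries). Some results that rest on IgGK are also given without IgGK replicates 1 and 2, but no fold change of Lepr, Jak2 or Stat3 is. This alternative was chosen after the data were seen, and the variance of its lone IgGK library is taken from the other groups. It is not free of adrenal transcripts, since IgGK replicate 3 also held more of them than WTK or LepK. For the 3 adrenal cortex markers tested, the median log2 fold change of this library over WTK was 2.74. That of LepK relative to this library was -3.88. In whole organs, a change in the number of cells of a type and a change in RNA per cell cannot be told apart.

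With folic acid and control IgG, Socs3, Stat3 and Lepr were up-regulated in the kidney and Lep and Irs2 were down-regulated, so 3 of 10 members rose and 2 fell. Over all 19593 genes tested in this comparison 21.7% rose and 15.6% fell. With library-size scaling, which moved the median of all genes from 0.04 to 0.48, Jak2 (0.91) and Ptpn1 (0.60) were also called up and Irs2 was not called. LepAb in the injured kidney lowered 1 of 10 members, Socs3, and raised none, where 5.99% of all genes fell and 4.38% rose. In the injured lung none of the 9 members tested was called in either direction, against 1.78% of 19617 genes up and 2.36% down. The median log2 fold change of the members was 0.18 in IgGK against WTK, -0.26 for LepK against IgGK and -0.30 for lung, and that of all genes was 0.04, -0.01 and 0.00. The libraries of the groups did not overlap for 6 of 10 members in IgGK against WTK (62.6% of all genes), for 6 of 10 in LepK against IgGK (37.4%) and for 5 of the 9 tested in lung (33.3%). The comparisons of IgGK with WTK and of LepK with IgGK share the IgGK libraries, and those of IgGK and LepK with WTK share the WTK libraries.

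**Figure D1:**
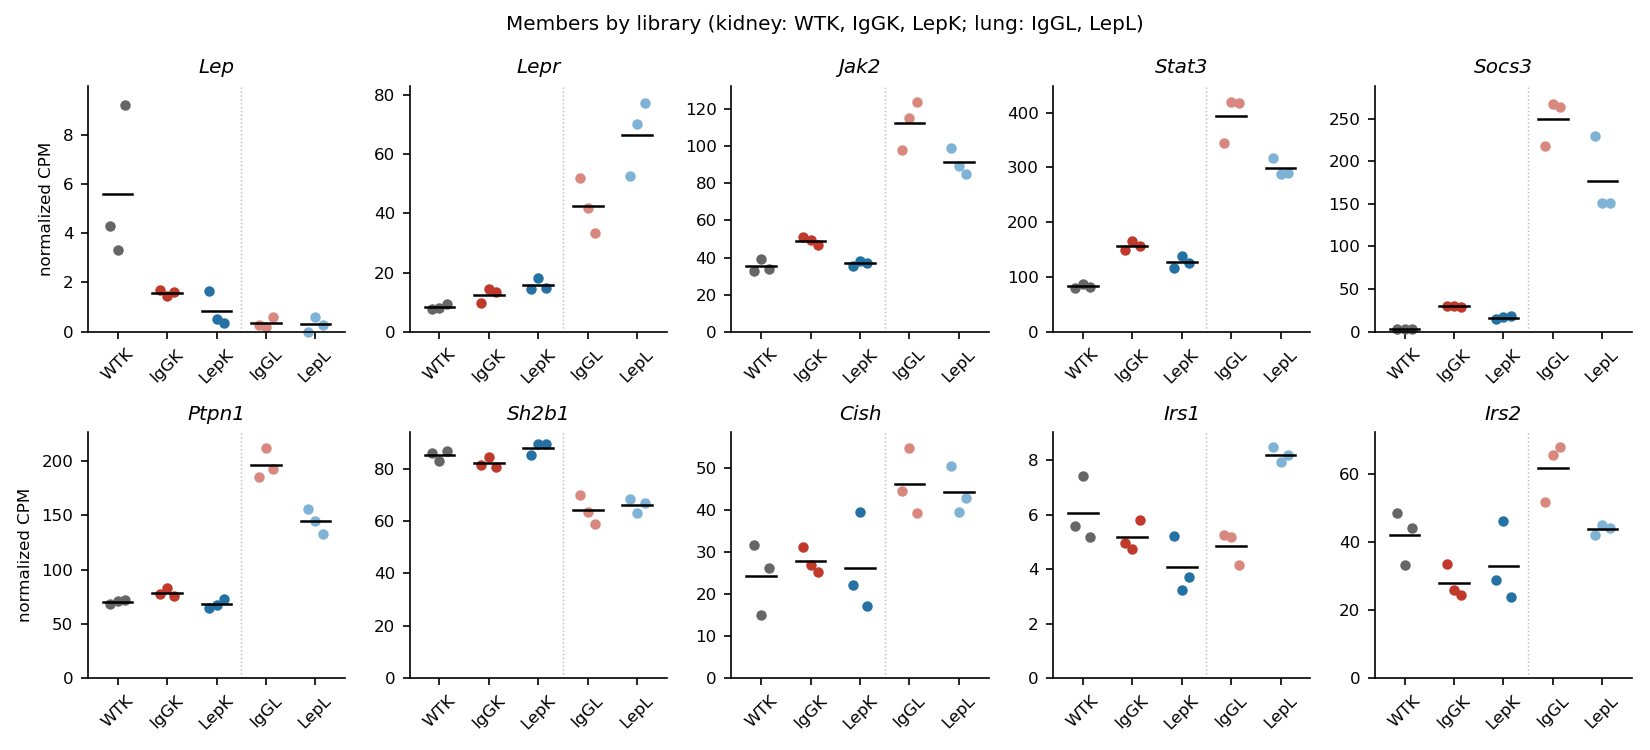
Normalized CPM of the 10 members by library: each point is 1 library, each bar the mean of 3, the horizontal axis gives the group and the vertical axis starts at 0 in each panel. Socs3 lies at 2.70 to 3.44 in WTK, 28.8 to 30.3 in IgGK and 14.8 to 18.0 in LepK, while Sh2b1 stays between 80.8 and 89.5 in all 9 kidney libraries.

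The ligand was scarce in every library. Lep, on chromosome 6 (29060219 to 29073876, plus strand, GRCm39 as in the table), was at 4.28, 3.32 and 9.23 CPM in WTK, at 1.68, 1.46 and 1.62 in IgGK and at 1.65, 0.503 and 0.369 in LepK. Every WTK library lay above every injured one, and IgGK and LepK overlapped through LepK replicate 1. Lep was 3.54-fold lower in IgGK than in WTK (log2 fold change -1.82, SE 0.49, adjusted p = 0.00681, edgeR). The call was lost without WTK replicate 3, the highest library (-1.26, adjusted p = 0.0573, edgeR), and without IgGK replicates 1 and 2 (-1.79, adjusted p = 0.102, edgeR). Against IgGK, the fold change in LepK was not called (-0.90, SE 0.52, adjusted p = 0.257, edgeR), but it was called without LepK replicate 1 (-1.84, adjusted p = 0.0284, edgeR). In lung Lep rested on 10, 7 and 18 counts in IgGL and 0, 21 and 11 in LepL, too few to pass the filter on low counts. The 0 in LepL replicate 1 allows up to 3 counts, or 0.0980 CPM, counting error only.

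Other fat cell transcripts went the opposite way in the injured kidney. The 8 adipocyte markers were Adipoq, Plin1, Cfd, Fabp4, Retn, Cidec, Cidea and Ucp1. All 8 rose from WTK to IgGK (median log2 fold change 2.20), beside 21.7% of all genes. In LepK against IgGK 1 of 8, Adipoq, fell (median -0.91), beside 5.99% of all genes. Without IgGK replicates 1 and 2 their medians were 1.82 and -0.49 in these comparisons. Their summed level was 93.4 to 220 CPM in WTK, 556 to 926 in IgGK and 254 to 516 in LepK, and no marker was at 0 in any library. Adipoq, which encodes the fat cell hormone adiponectin, was at 15.3, 6.12 and 16.2 CPM in WTK, 53.9, 65.0 and 36.0 in IgGK and 26.9, 29.3 and 8.31 in LepK. Every IgGK library was above every WTK library, and 2 LepK libraries lay between both ranges and 1 within that of WTK. For each 100 CPM of Adipoq there were 27.99, 54.2 and 57.1 CPM of Lep in WTK, 3.12, 2.24 and 4.49 in IgGK and 6.12, 1.72 and 4.44 in LepK. The injured kidneys with and without LepAb overlapped in this ratio and both lay far below WTK. In lung, the adipocyte markers summed to 62.6 to 154 CPM in IgGL and 213 to 315 in LepL. There, 3 of 8 (Adipoq, Cidec and Cidea) were up-regulated, beside 1.78% of all genes. None of the 8 was called with the replicate block or without any 1 lung library other than IgGL replicate 1, without which all 8 were. Calls over all genes moved alike. They were 4 with the replicate block, 0 to 22 without a library other than IgGL replicate 1, and 3539 without IgGL replicate 1, against 812. The difference in LepAb effect, kidney minus lung, was called negative for 6 of 8 (median -2.32), beside 3.62% of all genes. Without IgGK replicates 1 and 2 that median was -2.04. The part of these fat cell transcripts in the level of Lep was not tested.

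**Figure D2:**
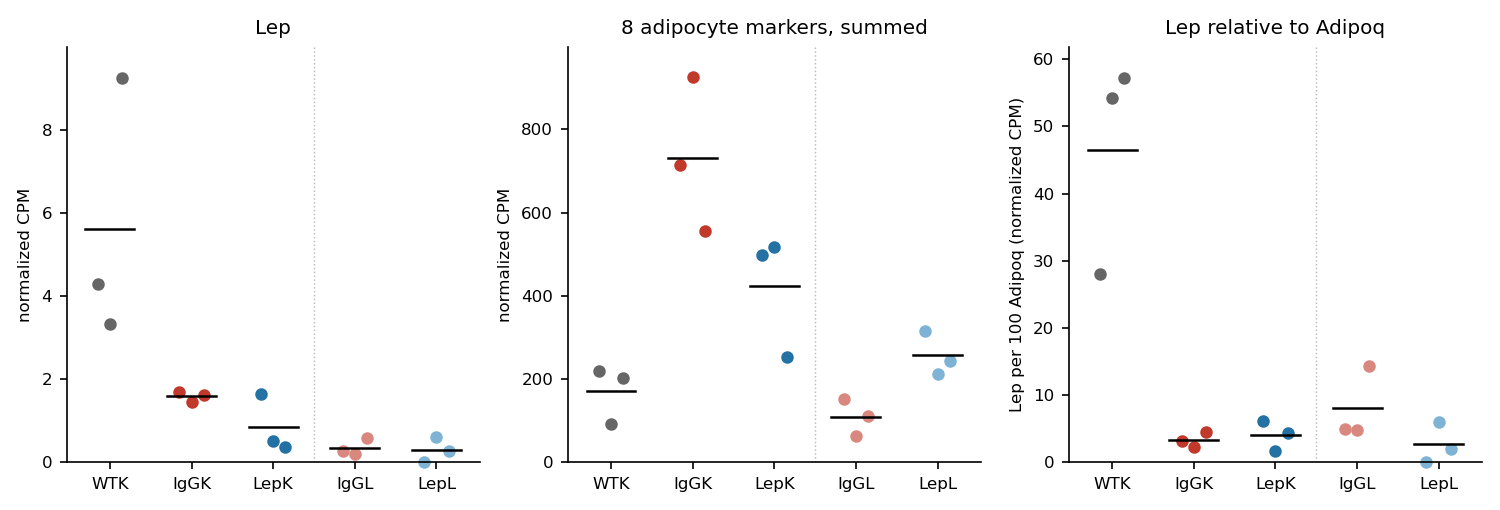
Lep (left), 8 adipocyte markers summed (middle) and Lep for each 100 of Adipoq (right), in normalized CPM by group; points are libraries and bars means of 3. Lep is highest in the 3 WTK libraries, the marker sum is highest in IgGK, and the ratio is 27.99 to 57.1 in WTK and 1.72 to 6.12 in the injured kidneys.

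The receptor rose where the ligand fell. Lepr, on chromosome 4 (101574601 to 101672549, plus strand), was at 7.64, 8.06 and 9.20 CPM in WTK, 9.86, 14.3 and 13.4 in IgGK and 14.5, 18.1 and 14.6 in LepK. The 3 groups did not overlap and stood in that order, although IgGK and LepK were apart by a narrow margin (14.3 and 14.5 CPM at the nearest). Lepr was up-regulated in IgGK against WTK (log2 fold change 0.59, SE 0.16, adjusted p = 0.00624, edgeR), close to the fold threshold: without IgGK replicate 2 it was 0.49 and no longer called. It was 1.89-fold higher in LepK than in WTK (0.92, SE 0.16, adjusted p = 0.000612, edgeR). The step from IgGK to LepK was not called (0.33, 95% interval -0.00247 to 0.66, adjusted p = 0.155, edgeR). In lung Lepr was at 52.0, 41.7 and 33.3 CPM in IgGL and 52.7, 70.1 and 77.2 in LepL. Every LepL library was above every IgGL library, by a narrow margin, and the fold change of 0.65 (SE 0.19) did not pass the adjusted test (adjusted p = 0.0721, edgeR). It was called without IgGL replicate 1 (0.83, adjusted p = 0.0119, edgeR), with no filter on low counts (0.67, adjusted p = 0.000233, edgeR) and by DESeq2 (0.66, adjusted p = 0.0148). The counts sum all transcripts of Lepr, so the long signaling isoform and the short isoforms are not separated.

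Jak2, the receptor's kinase (chromosome 19, 29229228 to 29290480, plus strand), was at 32.9, 39.0 and 34.0 CPM in WTK, 51.0, 49.4 and 46.7 in IgGK and 35.3, 38.3 and 36.9 in LepK. IgGK lay above both other kidney groups, and LepK lay within the range of WTK. The differences passed the adjusted test but not the fold threshold, at 0.47 in IgGK against WTK (SE 0.08, adjusted p = 0.000219, edgeR) and -0.41 in LepK against IgGK (SE 0.08, adjusted p = 0.00312, edgeR). Without WTK replicate 2 or IgGK replicate 3 the first was 0.55 or 0.51 and was called. LepK differed from WTK by 0.06 (95% interval -0.11 to 0.23). In lung Jak2 was at 98.3, 115 and 124 CPM in IgGL and 99.4, 89.3 and 85.3 in LepL, which overlap (-0.30, adjusted p = 0.137, edgeR).

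Stat3, the transcription factor downstream of JAK2 (chromosome 11, 100775924 to 100830366, minus strand), was at 80.4, 86.2 and 81.8 CPM in WTK, 149.8, 165 and 156 in IgGK and 117, 138 and 125 in LepK. The 3 kidney groups did not overlap, with LepK between the other two. Stat3 was up-regulated 1.90-fold in IgGK against WTK (log2 fold change 0.92, SE 0.07, adjusted p = 6.39e-07, edgeR) and was up-regulated in LepK against WTK (0.61, SE 0.07, adjusted p = 6.04e-05, edgeR). In LepK against IgGK it was at -0.31 (SE 0.07, adjusted p = 0.0107, edgeR), past the test and under the fold threshold. In lung it was at 345, 419 and 418 CPM in IgGL and 318, 288 and 289.7 in LepL. The lung groups did not overlap, and the log2 fold change of -0.40 passed neither the test (SE 0.12, adjusted p = 0.0774, edgeR) nor the fold threshold. Stat3 overlaps Stat5a on the other strand, and the libraries were not strand-specific, so reads from the overlap cannot be assigned by strand.

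Socs3, the feedback inhibitor induced by STAT3 (chromosome 11, 117856905 to 117860873, minus strand), had the largest change among the members in IgGK against WTK. It was at 2.70, 3.44 and 2.70 CPM in WTK, 29.9, 30.3 and 28.8 in IgGK and 14.8, 17.0 and 18.0 in LepK. The spread within each group was small beside the gaps between them. Socs3 was 10.1-fold higher in IgGK than in WTK (log2 fold change 3.33, SE 0.12, adjusted p = 7.61e-09, edgeR). It was 1.79-fold lower in LepK than in IgGK (-0.84, SE 0.11, adjusted p = 0.00041, edgeR) and still 5.62-fold higher in LepK than in WTK (2.49, SE 0.12, adjusted p = 1.49e-07, edgeR). From the group means, 51.1% of the rise in Socs3 remained in LepK, and 59.0% of that in Stat3, values that share their WTK and IgGK libraries. The fall in LepK was called without any 1 library (-0.90 to -0.76) and without IgGK replicates 1 and 2 (-0.78, adjusted p = 0.0363, edgeR). In lung Socs3 was at 217, 267 and 263 CPM in IgGL and 229, 151.5 and 150.9 in LepL. LepL replicate 1 lay within the IgGL range, and the fold change of -0.49 (SE 0.18) was not called (adjusted p = 0.118, edgeR), except without IgGL replicate 1 (-0.58, adjusted p = 0.0476, edgeR).

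Markers of several other cell types moved with Socs3 and Stat3 in the kidney, and those of the proximal tubule moved the other way. The 5 macrophage markers summed to 97.6 to 107 CPM in WTK, 269 to 306 in IgGK and 157 to 184 in LepK. Of these, 4 of 5 rose in IgGK against WTK and 4 of 5 fell in LepK against IgGK, beside 21.7% and 5.99% of all genes. The 5 injured tubule markers summed to 353 to 367, 6032 to 6337 and 2393 to 3714 CPM, the 5 fibroblast markers to 110 to 148, 587 to 684 and 267 to 406, and the 4 neutrophil markers to 2.01 to 2.16, 16.3 to 24.3 and 6.65 to 9.34. The neutrophil marker Retnlg was at 0 in some kidney libraries of each group, and none of the macrophage, injured tubule or fibroblast markers was. In LepK against IgGK 5 of 5 injured tubule, 4 of 5 fibroblast and 3 of 3 neutrophil markers tested fell, beside the same 5.99%. Without IgGK replicates 1 and 2 fewer of each list were called, as were fewer of all genes. The median log2 fold changes were then -1.17 for macrophage, -0.96 for injured tubule, -0.80 for fibroblast and -1.30 for neutrophil. With all IgGK libraries they were -1.40, -0.99, -0.85 and -1.69. The 5 proximal tubule markers summed to 13223 to 14062 CPM in WTK, 3087 to 4115 in IgGK and 5582 to 7335 in LepK. All 5 fell in IgGK against WTK, and 4 of 5 rose in LepK against IgGK, beside 15.6% and 4.38% of all genes. Of 5 endothelial markers, 2 (Kdr and Tek) fell in IgGK against WTK, beside the same 15.6%, and none was called in LepK against IgGK. The part of these cells in the levels of Socs3 and Stat3 was not tested.

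Ptpn1, which encodes the phosphatase PTP1B (chromosome 2, 167773977 to 167821305, plus strand), was at 68.1, 71.0 and 72.3 CPM in WTK, 77.99, 82.6 and 75.5 in IgGK and 64.7, 67.5 and 73.2 in LepK. IgGK lay above both other groups by a small margin, and neither difference was called (0.16 against WTK, adjusted p = 0.0608, and -0.20 in LepK against IgGK, adjusted p = 0.0507, edgeR). In lung it was at 185, 212 and 193 CPM in IgGL and 156, 145 and 133 in LepL. The lung groups did not overlap, and the fold change of -0.44 (SE 0.11) missed the test narrowly (adjusted p = 0.0518, edgeR). It also lay under the fold threshold.

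Sh2b1, the adaptor that strengthens JAK2 signaling (chromosome 7, 126066166 to 126074596, minus strand), was the steadiest member. Its kidney libraries ranged from 80.8 to 89.5 CPM and its lung libraries from 58.7 to 70.1, and the log2 fold changes were -0.05 in IgGK against WTK (95% interval -0.17 to 0.08), 0.10 in LepK against IgGK (-0.03 to 0.22) and 0.05 in LepL against IgGL (-0.18 to 0.28). Scaled by library size alone, the first was 0.39 and the second -0.08. Cish, a SOCS family inhibitor induced by STAT5 (chromosome 9, 107173225 to 107179983, plus strand), overlapped between the groups of each organ, from 15.1 to 31.8 CPM in WTK, 25.2 to 31.3 in IgGK, 17.2 to 39.6 in LepK, 39.3 to 54.9 in IgGL and 39.6 to 50.6 in LepL. Its log2 fold changes were 0.19 in IgGK against WTK, -0.08 for LepAb in kidney and -0.06 for LepAb in lung, with a 95% interval of -0.69 to 0.53 for the second. Between the organs IgGK lay below IgGL (-0.49, adjusted p = 0.0884, edgeR), a difference that was called with no filter on low counts (-0.51, adjusted p = 0.00408, edgeR). Cish was called in none of the comparisons within an organ, and the difference between Socs3 and Cish, whose promoter windows both hold the palindrome, was not tested.

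The insulin receptor substrates connect JAK2 to PI3K. Irs2 (chromosome 8, 11034681 to 11058458, minus strand) was at 48.5, 33.4 and 44.2 CPM in WTK, 33.5, 26.0 and 24.6 in IgGK and 28.9, 46.4 and 24.0 in LepK. It was down-regulated in IgGK against WTK (log2 fold change -0.59, SE 0.21, adjusted p = 0.0342, edgeR), although IgGK replicate 1 and WTK replicate 2 were level. The call was lost without WTK replicate 1 (-0.47), WTK replicate 3 (-0.55), IgGK replicate 2 (-0.53) or IgGK replicate 3 (-0.50), without IgGK replicates 1 and 2 together (-0.77, adjusted p = 0.0742, edgeR), with library-size scaling (-0.15, adjusted p = 0.575, edgeR) and by DESeq2 (-0.59, adjusted p = 0.0788). LepK was not called against IgGK (0.24, adjusted p = 0.474, edgeR), and against WTK it was called only without LepK replicate 2 (-0.67, adjusted p = 0.0109, edgeR). In lung Irs2 was at 51.9, 65.5 and 68.0 CPM in IgGL and 42.1, 45.01 and 44.1 in LepL, without overlap. The lung difference of -0.498 (SE 0.12) missed the test (adjusted p = 0.0516, edgeR) and lay just under the fold threshold. It passed both without IgGL replicate 1 (-0.61, adjusted p = 0.0042, edgeR).

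Irs1 (chromosome 1, 82210822 to 82269137, minus strand) was at 5.57, 7.42 and 5.19 CPM in WTK, 4.95, 4.74 and 5.81 in IgGK and 5.23, 3.25 and 3.73 in LepK. The kidney groups overlapped, and none of the 3 comparisons was called; the lowest was LepK against WTK at -0.57 (adjusted p = 0.0602, edgeR), which was called without LepK replicate 1 (-0.79, adjusted p = 0.0156, edgeR) and by DESeq2 (-0.58, adjusted p = 0.0341). In lung Irs1 was at 5.23, 5.17 and 4.16 CPM in IgGL and 8.49, 7.92 and 8.19 in LepL. Every LepL library was above every IgGL library, and the log2 fold change of 0.75 (SE 0.19) had an adjusted p of 0.0578 (edgeR). It was called without IgGL replicate 1 (0.81, adjusted p = 0.0276, edgeR), with no filter on low counts (0.77, adjusted p = 0.0344, edgeR) and by DESeq2 (0.76, adjusted p = 0.00434).

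**Figure D3:**
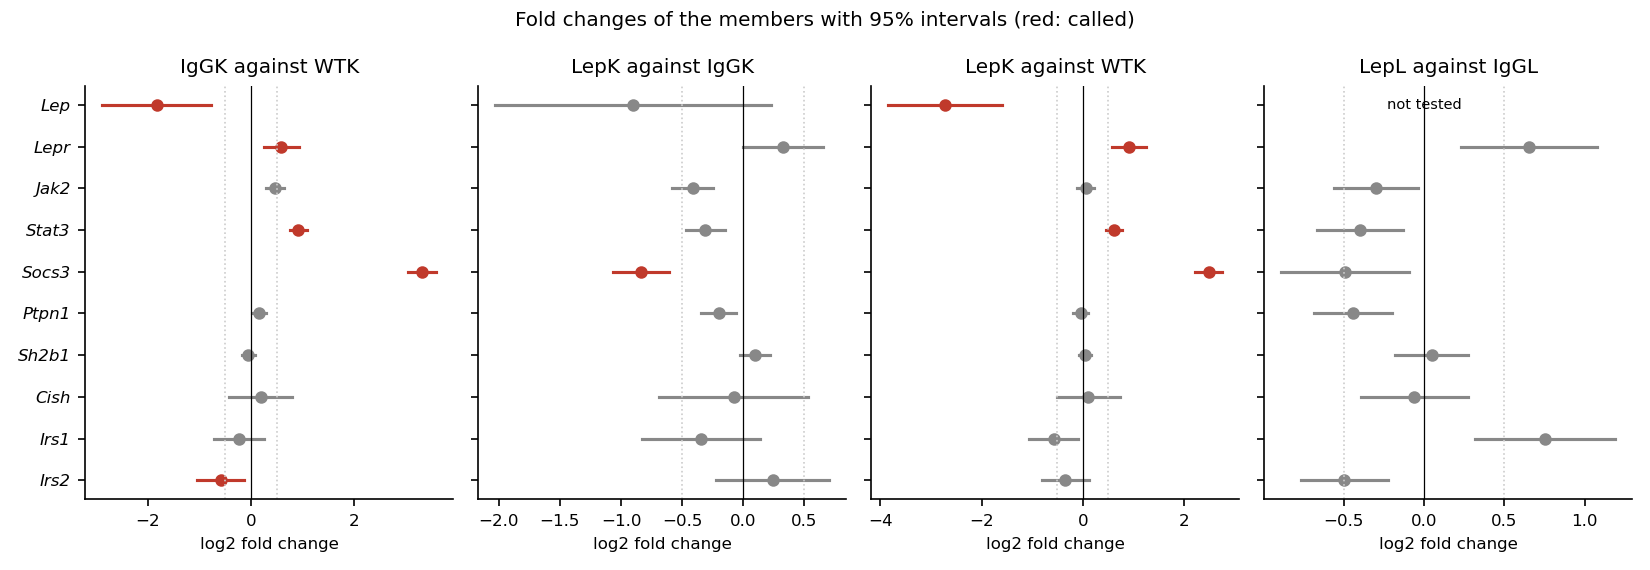
Log2 fold changes of the members (horizontal axis) in 4 comparisons; points are edgeR estimates, bars 95% intervals, red marks called members and dotted lines the fold threshold of 0.5. Socs3 is red on the right in IgGK against WTK (3.33) and on the left in LepK against IgGK (-0.84), and no member is red in lung.

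In LepK against WTK, 3 members rose (Lepr, Stat3 and Socs3) and 1 fell (Lep, -2.73, SE 0.52, adjusted p = 0.00129, edgeR), where 15.2% of all genes rose and 7.3% fell. The libraries did not overlap for 4 of 10 members, against 50.2% of all genes.

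Between the organs, the receptor side of the pathway was higher in injured lung than in injured kidney and the ligand lower. In IgGK against IgGL, with both organs in 1 fit, 6 of 10 members were lower in kidney (24.2% of 21488 genes) and 2 were higher (26.3%). Socs3 was 7.09-fold lower in kidney (log2 fold change -2.83, SE 0.16, adjusted p = 2.75e-09, edgeR), Lepr 2.85-fold (-1.51, SE 0.19, adjusted p = 1.15e-05, edgeR), and Stat3, Ptpn1, Jak2 and Irs2 were at -1.08, -1.08, -0.95 and -0.90. Sh2b1 was higher in kidney (0.61, SE 0.08, adjusted p = 1.95e-05, edgeR), as was Lep (2.40, SE 0.83, adjusted p = 0.0231, edgeR), whose call was lost without IgGK replicate 1 (2.36), IgGL replicate 1 (2.25) or IgGL replicate 2 (2.10), and without IgGK replicates 1 and 2 together (2.44, adjusted p = 0.117, edgeR). Organ, injuring agent, day and length of treatment differ together here and cannot be told apart.

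Levels of different genes can be compared only per length, for which the authors' FPKM values were used. By mean FPKM the members of WTK kidney ran from Sh2b1 (17.9), Ptpn1 (10.5), Stat3 (7.19), Jak2 (5.80) and Irs2 (5.49) to Cish (3.14), Lep (1.38), Lepr (0.974), Socs3 (0.843) and Irs1 (0.548). Neighbours overlapped from Jak2 to Irs2 and from Cish through Lep and Lepr to Socs3. In IgGK Socs3 (8.26) had moved to the fourth place, level with Jak2 (7.85), and Lep (0.381) to the last, below Irs1 (0.455) without overlap. In both lung groups Socs3 stood first (59.0 in IgGL and 42.9 in LepL), followed by Stat3 (28.3 and 21.9) and Ptpn1 (24.3 and 18.3), and Lep last (0.0725 and 0.0619).

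The effect of LepAb differed between kidney and lung for 1 of 10 members. With the 12 injured libraries fitted together and a threshold of 0.05 on the adjusted p, this difference was positive for 3.51% and negative for 3.62% of all genes. The member was Irs1, at -0.34 in kidney and 0.75 in lung, a difference of -1.07 (SE 0.30, adjusted p = 0.0497, edgeR), at the edge of the threshold. The call was lost without any 1 of 10 of the 12 libraries, with the replicate block (adjusted p = 0.066, edgeR), with no filter on low counts (adjusted p = 0.0589, edgeR) and without IgGK replicates 1 and 2 (adjusted p = 0.217, edgeR). For Socs3 the difference was -0.32 (95% interval -0.77 to 0.13) and for Lepr -0.30 (-0.87 to 0.27), and both intervals take in differences in either direction.

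Other genes of the pathway were followed as 4 lists, chosen with earlier results of these data known. Of 10 receptor partners and members of the JAK-STAT arm, 2 rose in IgGK against WTK and none fell (median log2 fold change 0.06), where 21.7% of all genes rose and 15.6% fell: Leprot, a regulator of receptor transport to the cell surface (0.79, adjusted p = 2.09e-06), and the Janus kinase Tyk2 (0.53, adjusted p = 3.7e-05, edgeR). With library-size scaling 5 of 10 rose (median 0.50, beside 0.48 for all genes). None was called with LepAb in kidney (median -0.13 against IgGK and 0.05 against WTK) or in lung (-0.11).

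Of 12 other negative regulators, 5 rose in IgGK against WTK and none fell (median 0.19), and 3 fell in LepK against IgGK and none rose (median -0.23), beside the 21.7% and 5.99% of all genes given above. With library-size scaling 9 of 12 rose in IgGK against WTK (median 0.63, beside 0.48 for all genes) and 4 of 12 fell in LepK against IgGK. Ptpre, which encodes a receptor-type tyrosine phosphatase, was at 3.74, 4.19 and 3.50 CPM in WTK, 12.4, 16.5 and 14.02 in IgGK and 6.16, 7.44 and 6.05 in LepK. The groups did not overlap, and its log2 fold changes were 1.91 against WTK (SE 0.16, adjusted p = 8.9e-07, edgeR) and -1.13 in LepK against IgGK (SE 0.15, adjusted p = 0.000575, edgeR). Sh2b2, an adaptor of the SH2B family, showed 2.02 and -0.95 in these comparisons, and Socs2, a SOCS family inhibitor known for growth hormone signaling, 1.78 and -0.55. Socs1 (1.44) and Grb10 (0.66) rose from WTK to IgGK and were not called with LepAb. In LepK against WTK 3 of 12 remained higher (median 0.09), beside 15.2% of all genes, and in lung none of 12 was called (median -0.14). The kidney-minus-lung difference was called for 1 of 12, Ptpre (-1.40), where it was negative for 3.62% of all genes. Without IgGK replicates 1 and 2, 5 of 12 rose in IgGK against WTK and 1 of 12, Ptpre, fell in LepK against IgGK, and 1 of 12 also fell without IgGK replicate 1 alone or LepK replicate 1.

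Of 13 genes of the PI3K-AKT arm, 2 rose and 3 fell in IgGK against WTK (median -0.16), near the 21.7% and 15.6% of all genes. They included Pik3cd, the PI3K catalytic subunit of leukocytes (1.90, adjusted p = 1.49e-06), Mtor, which encodes the growth-controlling kinase mTOR (-1.76, adjusted p = 2.26e-06), and Pik3r1, a regulatory subunit of PI3K (0.69, SE 0.07, edgeR). With library-size scaling 3 rose and 1 fell (median 0.28, below the median of 0.48 for all genes). In LepK against IgGK 1 of 13 fell, Pik3cd (-0.63), and Mtor rose (0.51), with a median of -0.04. Without IgGK replicates 1 and 2 the median in LepK against IgGK was -0.02, and fewer of the 13 and of all genes were called. With 1 library left out 0 to 1 rose and 0 to 1 fell, and calls over all genes were 1303 to 2260, against 2032. In LepK against WTK 1 of 13 rose and 2 fell (median -0.14), beside 15.2% and 7.3% of all genes, and in lung none was called (median -0.10). The kidney-minus-lung difference was called for 1 of 13, Mtor, where it was positive for 3.51% of all genes. With library-size scaling Mtor was not called, and Pdpk1 and Pik3r1 were called negative.

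Of 19 genes known as STAT3 targets, 17 were up-regulated in IgGK against WTK, where 21.7% of all genes rose and 15.6% fell. The cyclin gene Ccnd1 was down-regulated (-1.95, SE 0.11, adjusted p = 4.63e-08, edgeR). The list's median log2 fold change was 1.71 beside 0.04 for all genes. The remaining gene, Bcl6, was not called. Lcn2, which encodes the tubular injury protein lipocalin-2, was at 2.49, 4.62 and 2.99 CPM in WTK, 114, 152 and 118 in IgGK and 43.2, 52.0 and 54.5 in LepK. Timp1, an inhibitor of matrix metalloproteinases, was at 0.872, 0.513 and 0.793 CPM in WTK, 23.9, 30.3 and 22.5 in IgGK and 6.22, 12.1 and 12.5 in LepK. Both genes separated all 3 kidney groups, with log2 fold changes of 5.25 and 5.13 in IgGK against WTK and -1.36 and -1.32 in LepK against IgGK. Fgb, a fibrinogen chain, had the highest fold change (5.29, SE 1.35), from 0 to 0.332 CPM in WTK, and is uncertain at that level. In LepK against IgGK, where 5.99% of all genes fell and 4.38% rose, 7 of 19 fell and Ccnd1 rose (median -0.44). With library-size scaling 10 fell and none rose. In LepK against WTK, where 15.2% of all genes rose and 7.3% fell, 15 of 19 were still higher and Ccnd1 lower (median 1.21). With IgGK replicates 1 and 2 left out, the list's median for the remaining IgGK library over WTK was 1.60, beside 0.03 for all genes. That of LepK relative to this library was -0.39, beside 0.02 for all genes and near the -0.44 with all libraries. Fewer of the list were then called down with LepAb, as were fewer of all genes.

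In lung, where 2.36% of all genes fell with LepAb and 1.78% rose, 5 of 18 STAT3 target genes tested fell and none rose (median -0.42). They were Timp1 (-2.33), the acute phase gene Serpina3n (-2.08), the transcription factor genes Nfil3 (-2.05) and Myc (-1.12), and the interleukin-4 receptor gene Il4ra (-1.12), with adjusted p of 0.0387, 0.0327, 0.0398, 0.0337 and 0.035 (edgeR). None of the 18 was called with the replicate block or without any 1 lung library other than IgGL replicate 1, without which 6 fell. Of all genes, 4 were called with the replicate block, and 1602 fell without IgGL replicate 1, against 463 with all libraries. Lcn2, called in kidney, was at 0.01 in lung, and its kidney-minus-lung difference was -1.34 (SE 0.27, adjusted p = 0.0191, edgeR). The differences for Nfil3 (1.88, adjusted p = 0.0447) and Myc (1.15, adjusted p = 0.0312, edgeR) had the opposite sign. With 1 of the 12 libraries left out in turn, the difference was called in 12 of 12 fits for Lcn2, 3 of 12 for Myc and 1 of 12 for Nfil3, and without IgGK replicates 1 and 2 none of the 19 genes was called. With library-size scaling Lcn2 was called (-1.59) and Nfil3 and Myc were not. The lung neutrophil markers summed to 142 to 366 CPM in IgGL and 53.5 to 82.3 in LepL, none at 0, and 4 of 4 fell. The lung fibroblast markers summed to 2868 to 3291 CPM in IgGL and 1222 to 1692 in LepL (3 of 5 fell), the macrophage markers to 582 to 808 and 377 to 505 (2 of 5 fell), and the alveolar and airway markers to 14462 to 19637 and 27198 to 43931 (2 of 6, Sftpc and Sftpa1, rose). These calls too were lost with LepL replicate 2, LepL replicate 3 or IgGL replicate 2 left out, since 0 of all genes were then called in lung, in place of 812. The part of these cells in the changes was not tested.

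**Figure D4:**
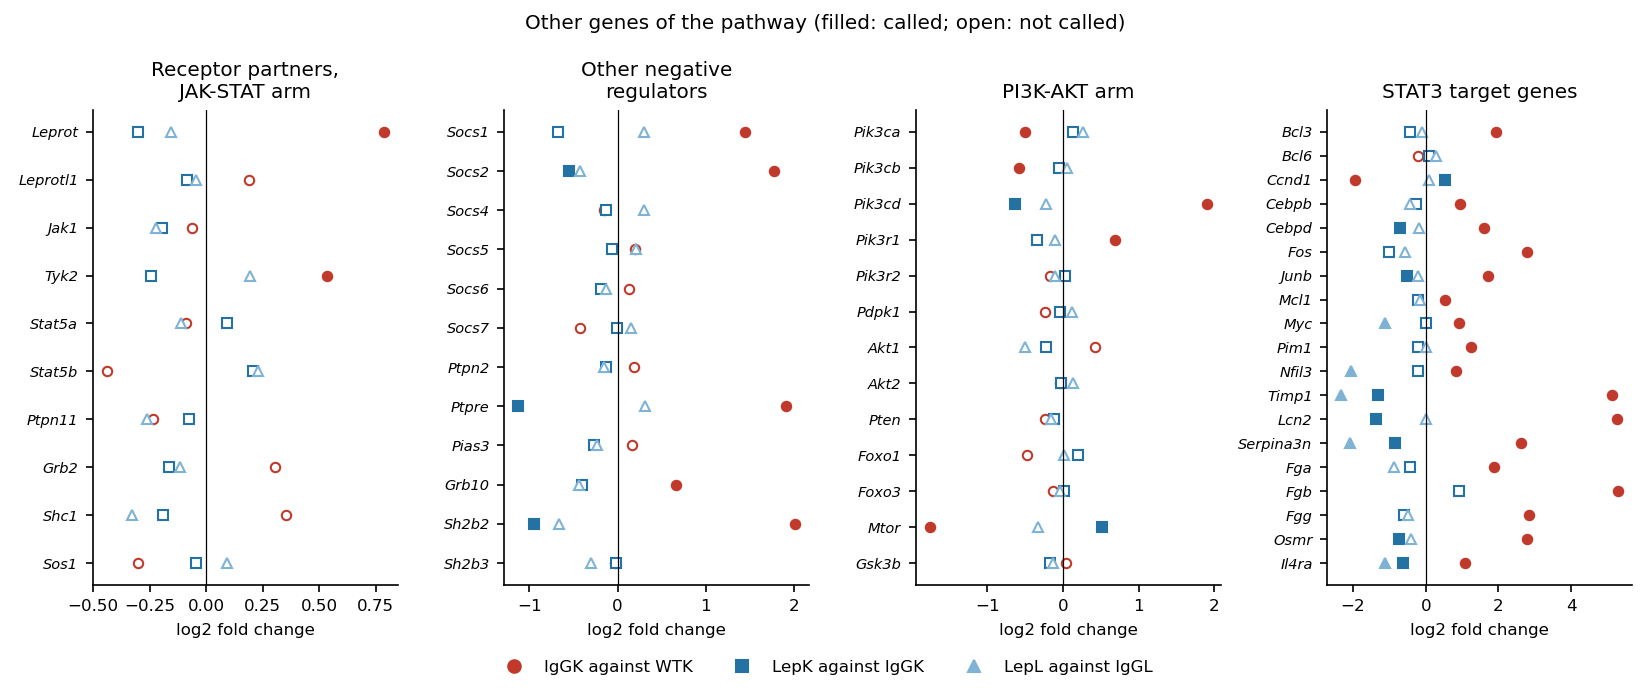
Log2 fold changes (horizontal axis) of the other pathway genes in 4 lists, for IgGK against WTK (circles), LepK against IgGK (squares) and LepL against IgGL (triangles); filled symbols are called. Among the STAT3 target genes 17 of 19 circles are filled to the right of 0, 7 squares to the left and 5 triangles to the left.

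By Pearson correlation of log2 levels over the 9 kidney libraries and 15765 genes, the genes most like Socs3 were Lcn2 (r = 0.998), Dpysl3, the matrix metalloproteinase gene Mmp7, Sema4c and the long noncoding Gm29683, the fifth at 0.997. Those most like Lepr were the interleukin-17 receptor gene Il17re (r = 0.973), the long noncoding 2610016A17Rik, Srgap3, Prdm16 and Atn1, the fifth at 0.964. These values describe 9 libraries that fall into 3 treatment groups, so a gene that follows the groups scores high.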

How the data were processed

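Poly(A)-selected, non-directional RNA libraries of 3 mice a group were analysed, 1 library to a mouse, and the labels give all libraries the same batch. The authors deposited a table of gene counts (whole reads per gene, not normalized) with FPKM values, which the authors scaled per length and per library size. The labels' processing notes name GRCm39 and DESeq2, and the aligner and counter are not given in the sources used here. The authors' own columns of group means, fold changes and p-values were not used. A line in most sample descriptions names a column of another group than the title does, so groups follow the titles and the tissue and treatment labels, and columns follow the library codes. The FPKM values serve only to compare levels between genes.

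Counts were filtered (filterByExpr, minimum count 10, total 15), scaled by TMM and tested with edgeR 4.0.16 (glmQLFit, glmQLFTest; R 4.3.3) over 9 kidney libraries, 6 lung libraries or the 12 from injured organs, with p-values adjusted over all genes tested. Calls needed an absolute log2 fold change over 0.5 (the study's thresholds) except for the kidney-minus-lung difference. Nothing says whether the mice shared cages or days, so p-values measure the spread between these libraries. All 10 members are described. From each list up to 3 called genes with the largest change were named, and the rest as examples chosen after their values were seen. The members and lists were chosen with earlier results of these data known. For 2 genes, left out of the lists, results are not reported here. The fit was tested on simulated data. Alternatives were RLE and library-size scaling, DESeq2 1.42.0, other filters, no fold threshold, the 2 groups alone, a replicate block, each library left out, and IgGK replicates 1 and 2 left out.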

Additional observations from a re-analysis of the deposited data

Results flagged for a closer look

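The effect of LepAb on Irs1 differed between the organs by a test of the difference itself, at -1.07 on the log2 scale for kidney minus lung (SE 0.30, adjusted p = 0.0497, edgeR, 12 libraries). The effect was -0.34 in kidney, where 1 of the 3 LepK libraries lay within the IgGK range, and 0.75 in lung, where all 3 LepL libraries lay above the IgGL libraries. The call was lost without any 1 of 10 of the 12 libraries (-1.13 to -0.92), with the replicate block (-1.08, adjusted p = 0.066, edgeR), with no filter on low counts (-1.09, adjusted p = 0.0589, edgeR) and without IgGK replicates 1 and 2 (-1.24, adjusted p = 0.217, edgeR).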

How the results depend on the processing

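Under the alternatives Socs3 kept both its rise in IgGK and its fall in LepK. The number of members called in IgGK against WTK was 5, and 3 without IgGK replicates 1 and 2 and 3 to 6 with 1 library left out (3 without WTK replicate 3 or IgGK replicate 2). In LepK against IgGK it was 1, and 2 with library-size scaling, 3 with no fold threshold and 1 to 2 with 1 library left out (2 without LepK replicate 1). In LepL against IgGL it was 0, and 2 with DESeq2, 2 with no filter on low counts (Lepr and Irs1 in each) and 0 to 4 with 1 library left out (4 without IgGL replicate 1). In LepK against WTK it was 4 to 5, and in IgGK against IgGL 7 to 8, with 1 library left out. For kidney minus lung it was 1, and 0 with the replicate block, 0 without IgGK replicates 1 and 2 and 0 to 2 with 1 library left out (2 without IgGL replicate 1). With group means removed, same-numbered libraries correlated at -0.06 to 0.24 in kidney and -0.13 to 0.14 in lung. Between IgGK and LepK the values were 0.23, 0.24 and -0.05 for replicates 1, 2 and 3. With so few libraries these values do not settle whether the numbers pair the mice. The replicate block changed no other count of members by over 1.5 times, but left 4 of 812 calls over all genes in lung and 1006 of 1531 for kidney minus lung.

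With library-size scaling the all-gene median was 0.48 for IgGK against WTK (7803 up and 1178 down, against 4253 and 3057), -0.19 in LepK against IgGK (408 and 2185, against 858 and 1174), 0.29 in LepK against WTK (4782 and 512, against 2984 and 1431) and -0.25 for kidney minus lung (249 and 1968, against 754 and 777). It turned the sign of Sh2b1 (0.39) and Irs1 (0.21) in IgGK against WTK, Sh2b1 (-0.0812) in LepK against IgGK, Ptpn1 (0.22) in LepK against WTK, and Stat3 (-0.13), Sh2b1 (-0.17) and Cish (-0.23) for kidney minus lung; Cish there was also -0.00958 with no filter, -0.0367 with a mean of at least 1 CPM and -0.0639 with the replicate block, and was 0.0706 in LepK against IgGK without IgGK replicates 1 and 2. With 1 library left out the sign turned within the ranges -0.0605 to 0.43 (Cish, IgGK against WTK), -0.50 to 0.15 (Cish, LepK against IgGK), -0.31 to 0.35 (Cish, LepK against WTK), -0.17 to 0.0793 (Cish, LepL against IgGL), -0.40 to 0.24 (Cish, kidney minus lung), -0.0803 to 0.43 (Irs2, LepK against IgGK), -0.0918 to 0.00307 (Ptpn1, LepK against WTK), -0.0133 to 0.12 (Sh2b1, LepL against IgGL), -0.19 to 0.00914 (Jak2, kidney minus lung) and -1.63 to 0.36 (Lep, kidney minus lung), none of them a called member. The cause of these changes was not tested.

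Calls over all genes also moved by over 1.5 times in LepL against IgGL (2338 with DESeq2, 2688 with no filter, 0 to 3539 with 1 library left out, against 812), LepK against IgGK (664 without IgGK replicates 1 and 2, 4025 with no fold threshold, 1303 to 2260 with 1 library left out, against 2032), LepK against WTK (7569 with no fold threshold, against 4415) and kidney minus lung (2926 with DESeq2, 2659 with no filter, 4 without IgGK replicates 1 and 2, 352 to 3763 with 1 library left out, against 1531). Lep in lung, at 0 to 21 counts, was limited by depth.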
